A study of Homo sapiens with 120 samples.

Results

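The 77 genes described here encode subunits of the oxidative phosphorylation machinery, with a few relatives that share the name, measured in TK6 cells after exposure to 5 genotoxic chemicals. They were chosen by symbol and not by any measured change: NDUFA, NDUFB, NDUFC, NDUFS and NDUFV for complex I, SDHA to SDHD for complex II, UQCR for complex III, COX4 to COX8 for complex IV and ATP5 for ATP synthase. Assembly factors, pseudogenes, antisense and divergent transcripts were left out, and 9 other genes that the rule names were not analysed here. The 77 were found among 19775 genes with a probe set of their own, and 73 of them lay among the 14023 genes bright enough to be tested. The tested genes were 33 of complex I, 3 of complex II, 6 of complex III, 13 of the 17 of complex IV and 18 of ATP synthase. The 4 untested genes, COX6A2, COX7A1, COX7B2 and COX8C, are isoforms of complex IV subunits known from muscle, testis or other tissues.

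TK6 is a human B lymphoblastoid line widely used in genetic toxicology. The study set formaldehyde (FA) beside 2 alkylating clastogens, which break chromosomes, and 2 aneugens, which disturb the mitotic spindle. The treated cultures received FA at 50, 100 or 200 µM, methyl methanesulfonate (MMS) at 80, 160 or 320 µM, ethyl methanesulfonate (EMS) at 1, 2 or 4 mM, colcemid (COL) at 1, 2 or 4 µg/ml, or vincristine (VCR) at 1, 2 or 4 µg/ml, for 4 h or 24 h. Each chemical had its own untreated cultures at both times, with 3 numbered experiments in each of the 40 groups and 1 array per experiment and group, 120 arrays in all. The titles write the COL and VCR doses with leading zeros, so it is not known whether a decimal point was lost. All comparisons are of one cell line, and the labels number the experiments without saying that each began from a separate culture, so p-values measure the spread between these arrays.

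The respiratory chain passes electrons from NADH through complex I, or from succinate through complex II, by way of ubiquinone to complex III and then through cytochrome c to complex IV, which reduces oxygen. The proton gradient that complexes I, III and IV build drives ATP synthase. Most subunits are encoded in the nucleus, as are all the genes described here, and a smaller set, not analysed here, is encoded by mitochondrial DNA. Proliferating lymphoblasts use glycolysis and respiration together, and respiration also supplies oxidised cofactors for nucleotide synthesis.

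Expression is given as a log2 value per probe set, normalised by the submitters with RMA, and all levels and changes below are on the log2 scale. A change is the treated mean minus the untreated mean on that scale, with its standard error (SE) from a linear model in limma fitted to the 24 arrays of a chemical. A gene was called higher or lower at an adjusted p under 0.05 after Benjamini-Hochberg adjustment over the 14023 genes. The array medians lay between 6.133 and 6.243, and the highest correlation between 2 arrays was 0.99835. All 7 B lymphoid markers exceeded the limit of 6.18 used for testing, with median signals of 8.67 to 13.78. Of the markers of other cells, 2 of 6 for T and NK cells, 3 of 6 for myeloid cells, 4 of 6 for epithelial cells and fibroblasts and 2 of 2 for erythroid cells exceeded it too, at 8.55 or less, and the deposited values carry no detection calls. The array values are relative, so less RNA per cell and fewer cells of one kind cannot be told apart.

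Most members were among the bright signals of these cells. The mean log2 signal of the 73 tested members had a median of 12.37 and ranged between 6.31 and 13.80, while the median of all tested genes was 8.15. A mean of at least 10 was reached by 70 of the 73 members (95.9%) and by 21.3% of all tested genes. The 3 dim members were ATP5MF at 6.31, an ATP synthase subunit, COX6B2 at 6.60 and COX4I2 at 6.83, the last of them known as the hypoxia-responsive form of COX4. ATP5MF had 1 probe set here, which reached the limit for testing on 98 of the 120 arrays. Whether its dim signal belongs to the gene or to that probe set was not tested. Members were also short genes, with a median length of 9.94 kb against 26.1 kb for all tested genes. Because signals near 14 approach the highest value in the table, 14.73, changes of the brightest members may be compressed, and members are set below beside other genes of similar brightness.

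Promoter sequence is shown for 6 members that the values below turn on. ATP5MC1 encodes the c subunit of the ATP synthase rotor, SDHA the flavoprotein that oxidises succinate in complex II, NDUFA13 (also called GRIM-19) an accessory subunit of complex I, and NDUFS4 an accessory subunit at the NADH-oxidising end of complex I. NDUFV3 and NDUFS7 are further complex I subunits described below. Each window runs from 150 bases before to 30 after the start given by RefSeq (GRCh38.p14), on the plus strand, at chr17:48892637-48892816 for ATP5MC1, chr5:218170-218349 for SDHA, chr19:19516075-19516254 for NDUFA13, chr5:53560489-53560668 for NDUFS4, chr21:42893159-42893338 for NDUFV3 and chr19:1383757-1383936 for NDUFS7. Capitals mark letters that match a motif of a factor linked to nuclear genes of mitochondrial proteins: GCGC and GCGC parted by any 2 bases for NRF1, CCGGAAG for ETS factors such as GABP, AAGATGG for YY1, or the E-box CACGTG.
ATP5MC1: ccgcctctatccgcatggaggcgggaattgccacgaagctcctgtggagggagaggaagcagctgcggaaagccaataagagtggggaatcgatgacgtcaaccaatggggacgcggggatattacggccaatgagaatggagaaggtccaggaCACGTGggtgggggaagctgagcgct
SDHA: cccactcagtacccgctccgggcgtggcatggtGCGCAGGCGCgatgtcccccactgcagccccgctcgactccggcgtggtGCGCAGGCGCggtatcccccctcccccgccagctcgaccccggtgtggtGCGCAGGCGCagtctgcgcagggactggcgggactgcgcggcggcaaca
NDUFA13: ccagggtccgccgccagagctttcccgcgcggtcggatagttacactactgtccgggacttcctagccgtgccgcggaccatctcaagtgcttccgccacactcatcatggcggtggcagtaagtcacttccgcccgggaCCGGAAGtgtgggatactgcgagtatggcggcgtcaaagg
NDUFS4: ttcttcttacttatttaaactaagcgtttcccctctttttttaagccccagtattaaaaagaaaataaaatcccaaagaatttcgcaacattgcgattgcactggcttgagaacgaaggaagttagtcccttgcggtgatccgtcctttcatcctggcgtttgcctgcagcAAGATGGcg
NDUFV3: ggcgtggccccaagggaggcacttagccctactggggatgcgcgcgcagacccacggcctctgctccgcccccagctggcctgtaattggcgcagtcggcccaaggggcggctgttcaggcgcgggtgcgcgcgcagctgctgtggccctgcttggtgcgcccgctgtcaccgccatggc
NDUFS7: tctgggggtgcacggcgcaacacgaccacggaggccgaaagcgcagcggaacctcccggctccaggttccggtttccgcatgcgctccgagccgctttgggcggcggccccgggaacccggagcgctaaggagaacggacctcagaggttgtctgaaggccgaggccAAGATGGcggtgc

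The printed windows carry an E-box just after the start of ATP5MC1, a repeated NRF1 motif in SDHA, an ETS motif in NDUFA13 and a YY1 motif in both NDUFS4 and NDUFS7. None of these letters stands in the window of NDUFV3, which rose beside SDHA after MMS and EMS. RefSeq windows of 250 bases before to 50 after a start were found for 66 of the 77 members, 79 windows in all, and were searched on both strands. The NRF1 letters occurred in 21.5% of member windows and 8.32% of all 35116 windows, the ETS letters in 25.3% and 10.3%, the YY1 letters in 22.8% and 5.84%, and the E-box in 8.86% and 7.26%. At least 1 of the 4 was present in 55.7% of member windows and 26.8% of all windows. A match describes these letters only, and whether a factor bound there was not measured.

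FA raised a large share of the members at 4 h. At 200 µM, 56 of the 73 tested members were called higher and 0 lower, where 29.6% of all tested genes were called higher and 24.2% lower. Among the 2914 non-members with a mean of 10 or more, 33.6% were called higher and 30.3% lower. The median member change was 0.18, the median of all tested genes 0.08 and that of the bright non-members 0.03, and 71 of the 73 members lay above 0. Members of every complex were among the 56, with 27 of 33 in complex I, 2 of 3 in complex II, all 6 in complex III, 8 of 13 in complex IV and 13 of 18 in ATP synthase. Median changes by complex were 0.24, 0.28, 0.17, 0.14 and 0.14 in the same order. At 100 µM, 38 members were called higher and 0 lower, where 20.9% of all genes were called higher and 19.8% lower, and 72 of 73 lay above 0. At 50 µM limma called 0 members, 2 had an unadjusted p under 0.05, and 0.82% of all genes were called.

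**Figure D1:**
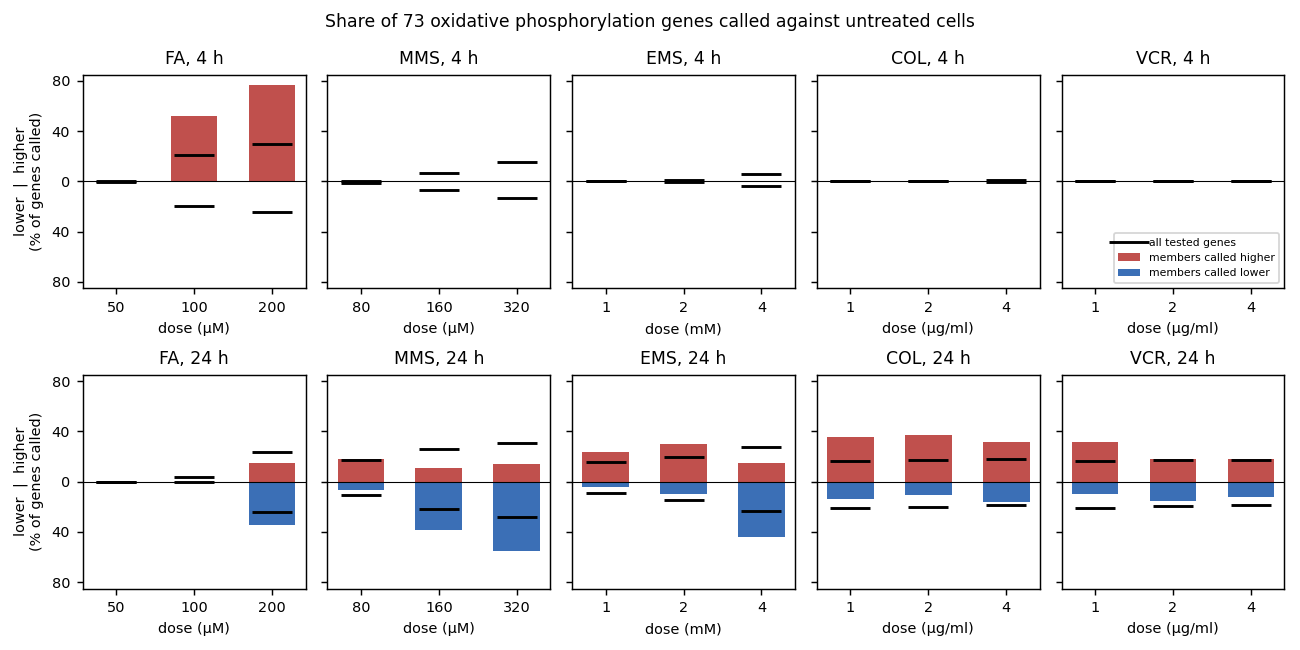
Percent of the 73 tested members called higher (red bars, upwards) or lower (blue bars, downwards) at each dose of the 5 chemicals, at 4 h in the upper panels and 24 h in the lower ones, with black lines for the same percent of all 14023 tested genes. At 4 h bars stand in the FA panel only, at 100 and 200 µM, and at 24 h FA at 200 µM, MMS and EMS show bars in both directions.

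NDUFS4 gave the largest of these rises. Its log2 signal was 10.80, 10.85 and 10.78 after 200 µM FA at 4 h, against 10.48, 10.53 and 10.13 in untreated cells, a change of 0.43 ± 0.0751 (SE, n = 3 each; adjusted p = 6.11e-05). All treated arrays lay above all untreated ones, and the untreated array of experiment 3 lay lowest. NDUFS7, which carries the last iron-sulfur cluster before ubiquinone in complex I, had 11.09, 11.18 and 11.17 after FA against 10.75, 10.85 and 10.63 in untreated cells (0.41 ± 0.0546, adjusted p = 2.19e-06). NDUFA10, an accessory subunit of the membrane arm, had 11.38, 11.53 and 11.44 against 11.13, 11.23 and 10.86 (0.38 ± 0.0683, adjusted p = 9.66e-05). In both genes the groups did not overlap and the same untreated array was again the lowest.

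That untreated FA array of experiment 3 at 4 h stood apart from its group. Its correlations with the other 2 untreated arrays were 0.994 and 0.995 over the tested genes, while those 2 correlated at 0.997. Without it, 53 members were called higher at 200 µM and 0 lower, and the changes were 0.31 for NDUFS4, 0.35 for NDUFS7 and 0.27 for NDUFA10. At 100 µM the count fell to 25 without that array, against 38 with it. When whole experiments were left out in turn, 35 to 45 members were called at 200 µM and 8 to 31 at 100 µM. A second normalisation of the arrays to equal quantiles gave 22 members at 100 µM. The ACTB 3′ minus 5′ signal, a measure of RNA integrity, was 0.367 ± 0.0317 after 200 µM FA and 0.443 ± 0.207 in untreated cells at 4 h (log2, SD, n = 3 each), where the untreated arrays ranged between 0.299 and 0.680, and its part in these results was not tested.

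Other rises at 4 h ran through all parts of the chain. UQCRC1, a core protein of complex III, had 11.33, 11.29 and 11.32 after 200 µM FA against 11.16, 11.07 and 10.80 in untreated cells, and its change of 0.30 became 0.20 without the untreated array that stood apart. SDHD and SDHC, the membrane anchors of complex II, rose by 0.35 and 0.28, while SDHA changed by 0.09 and was not called. COX5B, COX6A1, COX7A2L and COX6B1 of complex IV rose by 0.28, 0.27, 0.24 and 0.21, and COX4I1 by 0.14. In ATP synthase, ATP5MC2 rose by 0.23, ATP5MC1 by 0.22 and ATP5F1D, the δ subunit, by 0.21. Not called were ATP5F1A, the α subunit, at 0.01, ATP5F1C, the γ subunit, at 0.05, NDUFV2 at 0.00, NDUFS1, the largest core subunit of complex I, at 0.09, and the dim members COX4I2 at −0.04 and ATP5MF at −0.17. Of the called members with another probe set above the limit, 20 of 30 had all their probe sets moving the same way, and COX4I1 and NDUFA10 were among the 10 that did not. Members named beyond the largest changes of a comparison were picked after their values were seen. Exceptions are COX4I1, COX4I2, COX6A1, COX6B1, COX7A2, COX7A2L, SDHA, SDHC, SDHD, ATP5IF1, NDUFS1, UQCRC1 and ATP5F1A, which were to be described whatever they did.

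After MMS and EMS for 4 h, limma called 0 members at any dose. For MMS at 80, 160 and 320 µM, 0, 0 and 6 members had an unadjusted p under 0.05, and 1.6%, 13.5% and 28.6% of all tested genes were called. Member changes at 320 µM ran between −0.08 and 0.11, and their 95% confidence bounds between −0.26 and 0.26. A fit with the experiment as a block called 1 member at that dose, the mean of all probe sets of a gene called 5, and repeated quantile normalisation called 1. For EMS at 1, 2 and 4 mM, 0, 0 and 2 members had an unadjusted p under 0.05, and 0.143%, 1.06% and 9.6% of all genes were called. Other genes of these cells had moved by then: MYC, a transcription factor of growth and mitochondrial genes and not a member, changed by −1.05 ± 0.060 after 320 µM MMS for 4 h (adjusted p = 3.27e-11).

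COL and VCR likewise gave 0 called members at 4 h in limma at each dose, with 0 members at an unadjusted p under 0.05. Of all tested genes 0%, 0.0642% and 0.913% were called for COL at 1, 2 and 4 µg/ml, and 0%, 0.00713% and 0.25% for VCR. These backgrounds are so small that the 0 counts of COL and VCR say little about the members.

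By 24 h the members had spread in both directions, and falls outnumbered rises at the highest dose of FA, MMS and EMS. After 200 µM FA, 11 members were called higher and 25 lower, where 23.8% of all tested genes were called higher and 23.9% lower, and of the bright non-members 27.1% were higher and 40.5% lower. The median member change was −0.06, beside −0.03 for all tested genes and −0.07 for bright non-members. Complex I had 5 higher and 12 lower, complex II 0 and 0, complex III 0 and 2, complex IV 4 and 2, and ATP synthase 2 and 9. The lower doses gave no called member at 24 h in limma: 1 had an unadjusted p under 0.05 at 50 µM and 4 at 100 µM, where 0% and 3.81% of all genes were called. With the experiment as a block, 1 member was called at 100 µM.

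ATP5MC1 fell the most after FA. At 24 h its log2 signal was 12.53, 12.64 and 12.55 in untreated cells, 12.50, 12.57 and 12.56 at 50 µM, 12.52, 12.53 and 12.52 at 100 µM, and 11.81, 12.02 and 11.98 at 200 µM. The arrays of 50 and 100 µM lay among or just below the untreated ones, and the fall came at 200 µM (−0.64 ± 0.0515, 1.56-fold, adjusted p = 1.15e-09), where all arrays lay below the others. NDUFA10 had 10.90, 10.92 and 10.85 at 200 µM against 11.47, 11.53 and 11.40 in untreated cells (−0.58 ± 0.0683, adjusted p = 3.22e-07), although the mean over its 4 probe sets that reach the limit gave −0.12, which was not called. NDUFS7 had 10.16, 10.32 and 10.30 against 10.78, 10.88 and 10.81 (−0.56 ± 0.0546, adjusted p = 1.98e-08). The treated and untreated arrays did not overlap for either gene.

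The members that rose at 24 h after 200 µM FA were led by NDUFA13, NDUFB11 and COX8A. NDUFA13 had 12.54, 12.52 and 12.59 after FA against 12.14, 12.28 and 12.16 in untreated cells (0.36 ± 0.0506, adjusted p = 4.01e-06). NDUFB11, a membrane-arm subunit of complex I, had 12.22, 12.19 and 12.30 against 11.90, 11.96 and 11.94 (0.31 ± 0.0485, adjusted p = 1.72e-05). COX8A, a small subunit of complex IV, had 13.05, 13.00 and 13.10 against 12.79, 12.85 and 12.83 (0.23 ± 0.0471, adjusted p = 0.000309). In each case all treated arrays lay above all untreated ones.

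Between 4 h and 24 h the response to 200 µM FA moved downwards as a test of the difference. The change at 24 h minus the change at 4 h was called lower for 48 members and higher for 0. Of all tested genes 27.5% were called lower and 25.8% higher, and of the bright non-members 37.6% and 28.7%. The median of this difference was −0.24 for members and −0.09 for all tested genes. After repeated quantile normalisation the split was 4 higher and 35 lower. NDUFS7 differed by −0.97 ± 0.077, NDUFA10 by −0.96 ± 0.097 and ATP5MC1 by −0.86 (adjusted p = 9.48e-10, 3.57e-08 and 2.56e-09). With the mean of its probe sets, NDUFA10 differed by −0.39. In 18 members the rise at 4 h, the fall at 24 h and the difference were all called, among them NDUFS4, NDUFS7, NDUFA10, NDUFV1, UQCRC1, UQCRC2, COX5B, ATP5F1B, ATP5F1D and ATP5MC1. That is 24.7% of members, where 6.4% of all tested genes and 11.4% of the bright non-members had this pattern. A further 10 members were called higher at both times: NDUFA2, NDUFA11, NDUFA13, NDUFB11, COX6A1, COX7A2, COX7A2L, COX8A, ATP5F1E and ATP5MK. These are 13.7% of members, where 8% of all tested genes and 10.9% of the bright non-members were higher at both times. Without the untreated array that stood apart, 49 members were lower and 0 higher in this difference. Some of these calls rest on the brightest probe set. With the mean of its probe sets, UQCRC2 changed by −0.06 at 4 h, and ATP5F1E by −0.20 at 4 h and −0.19 at 24 h. Of 20 called members with another probe set above the limit at 24 h, 14 had all probe sets moving the same way. ATP5F1E, NDUFA2, NDUFA10 and NDUFA11 were among the 6 that did not.

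The 2 upper FA doses were also set against each other within each time, and whether this step differed between the times was not tested. At 200 µM relative to 100 µM, 8 members were called higher and 1 lower at 4 h, where 17.4% and 17.5% of all genes were called, both shares above those of the members, and leaving out each experiment in turn left 2 to 3 called. At 24 h 5 members were called higher and 25 lower, where 20.5% and 22.2% of all genes were called. Of the bright non-members 24.2% were called higher and 38.5% lower. Repeated quantile normalisation gave 10 members higher and 24 lower. The ACTB 3′ minus 5′ signal at 24 h was 0.768 ± 0.0697 at 200 µM, against 0.481 ± 0.0239 in untreated FA cultures (log2, SD, n = 3 each), and its part in the 24 h results was not tested.

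MMS gave the largest member changes of the study at 24 h. At 320 µM, 10 members were called higher and 40 lower, where 30.8% of all tested genes were called higher and 27.7% lower, and of the bright non-members 33.5% were higher and 44% lower. The median member change was −0.14 and that of all tested genes −0.04. Repeated quantile normalisation gave 18 higher and 36 lower. Complex I had 6 higher and 16 lower, complex II 1 and 1, complex III 0 and 5, complex IV 2 and 5, and ATP synthase 1 and 13, with median changes of −0.11, −0.15, −0.08 and −0.21 in complexes I, III, IV and ATP synthase. At 80 µM 13 members were higher and 5 lower, where 17.6% and 10.9% of all genes were called. At 160 µM 8 members were higher and 28 lower, where 25.7% and 21.6% of all genes were called. Of the bright non-members 19.4% were higher and 23.9% lower at 80 µM, and 27.1% and 39.7% at 160 µM. The number of members called lower grew with each dose, and that of members called higher did not. After repeated quantile normalisation the split at 160 µM was 16 higher and 24 lower. At 80 µM 5 to 9 members were called when an experiment was left out, and without experiment 1 the split was 2 higher and 3 lower.

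ATP5MC1, whose promoter carries the E-box printed above, fell with each MMS dose. Its log2 signal at 24 h was 12.32, 12.46 and 12.40 in untreated cells, 12.16, 12.11 and 12.14 at 80 µM, 11.59, 11.62 and 11.64 at 160 µM, and 11.19, 11.25 and 11.22 at 320 µM. No 2 neighbouring doses overlapped, and the changes were −0.26, −0.78 and −1.17 ± 0.0395 (adjusted p = 4.63e-05, 1.21e-12 and 4.41e-16), the last a 2.25-fold fall. ATP5MC1, ATP5MC2 and ATP5MC3 encode the same mature c subunit with different import sequences. At 320 µM ATP5MC2 changed by −0.15 and ATP5MC3 by −0.23, and both were called lower.

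ATP5F1D and ATP5F1C followed the same order of doses. ATP5F1D had 10.72, 10.96 and 10.70 in untreated cells, 10.42, 10.59 and 10.52 at 80 µM, 10.15, 10.11 and 10.02 at 160 µM and 9.75, 9.68 and 9.62 at 320 µM, with a change of −1.11 ± 0.0616 at the last dose (2.15-fold, adjusted p = 1.29e-12). Its other probe set gave −0.61. ATP5F1C, the γ subunit that forms the turning shaft, had 12.67, 12.74 and 12.69 in untreated cells, 12.62, 12.61 and 12.60 at 80 µM, 12.34, 12.33 and 12.30 at 160 µM and 11.74, 11.86 and 11.70 at 320 µM (−0.93 ± 0.0428, 1.91-fold, adjusted p = 6.15e-14). Its 2 other bright probe sets gave −0.94 and −0.92, and a dim one −0.18. The catalytic subunits moved less: ATP5F1A, the α subunit, by −0.30 and ATP5F1B, the β subunit, by −0.36. NDUFB10 (−0.73), NDUFA3 (−0.66), NDUFV2 (−0.63), NDUFS7 (−0.59) and NDUFA1 (−0.56) led the falls of complex I, and COX5B (−0.54) and COX6B1 (−0.41) those of complex IV.

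SDHA and NDUFV3 went the other way. SDHA had 10.80, 10.92 and 10.96 in untreated cells, 11.13, 11.11 and 11.13 at 80 µM MMS, 11.37, 11.44 and 11.42 at 160 µM and 11.67, 11.62 and 11.46 at 320 µM, with a change of 0.69 ± 0.0527 at the last dose (1.61-fold, adjusted p = 2.18e-10). NDUFV3, an accessory subunit beside the flavin site of complex I, had 10.25, 10.38 and 10.21 in untreated cells, 10.36, 10.42 and 10.39 at 80 µM, 10.66, 10.66 and 10.54 at 160 µM and 10.98, 10.96 and 10.96 at 320 µM (0.68 ± 0.0447, 1.61-fold, adjusted p = 1.69e-11). Its second probe set gave 0.20. SDHA has a single probe set here and near-identical pseudogene copies in the genome, and whether they add to its signal was not tested. NDUFB1 of the complex I membrane arm had 13.21, 13.14 and 13.29 at 320 µM against 12.90, 12.88 and 12.78 in untreated cells (0.36 ± 0.0482, adjusted p = 1.04e-06), and ATP5IF1, the inhibitor protein that stops ATP synthase from running backwards, rose by 0.36. Of the other complex II genes at 320 µM MMS, SDHC fell by 0.23 and SDHD, at 0.16, was not called. After 4 mM EMS for 24 h SDHD was called higher, at 0.14. SDHB was not analysed here.

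**Figure D2:**
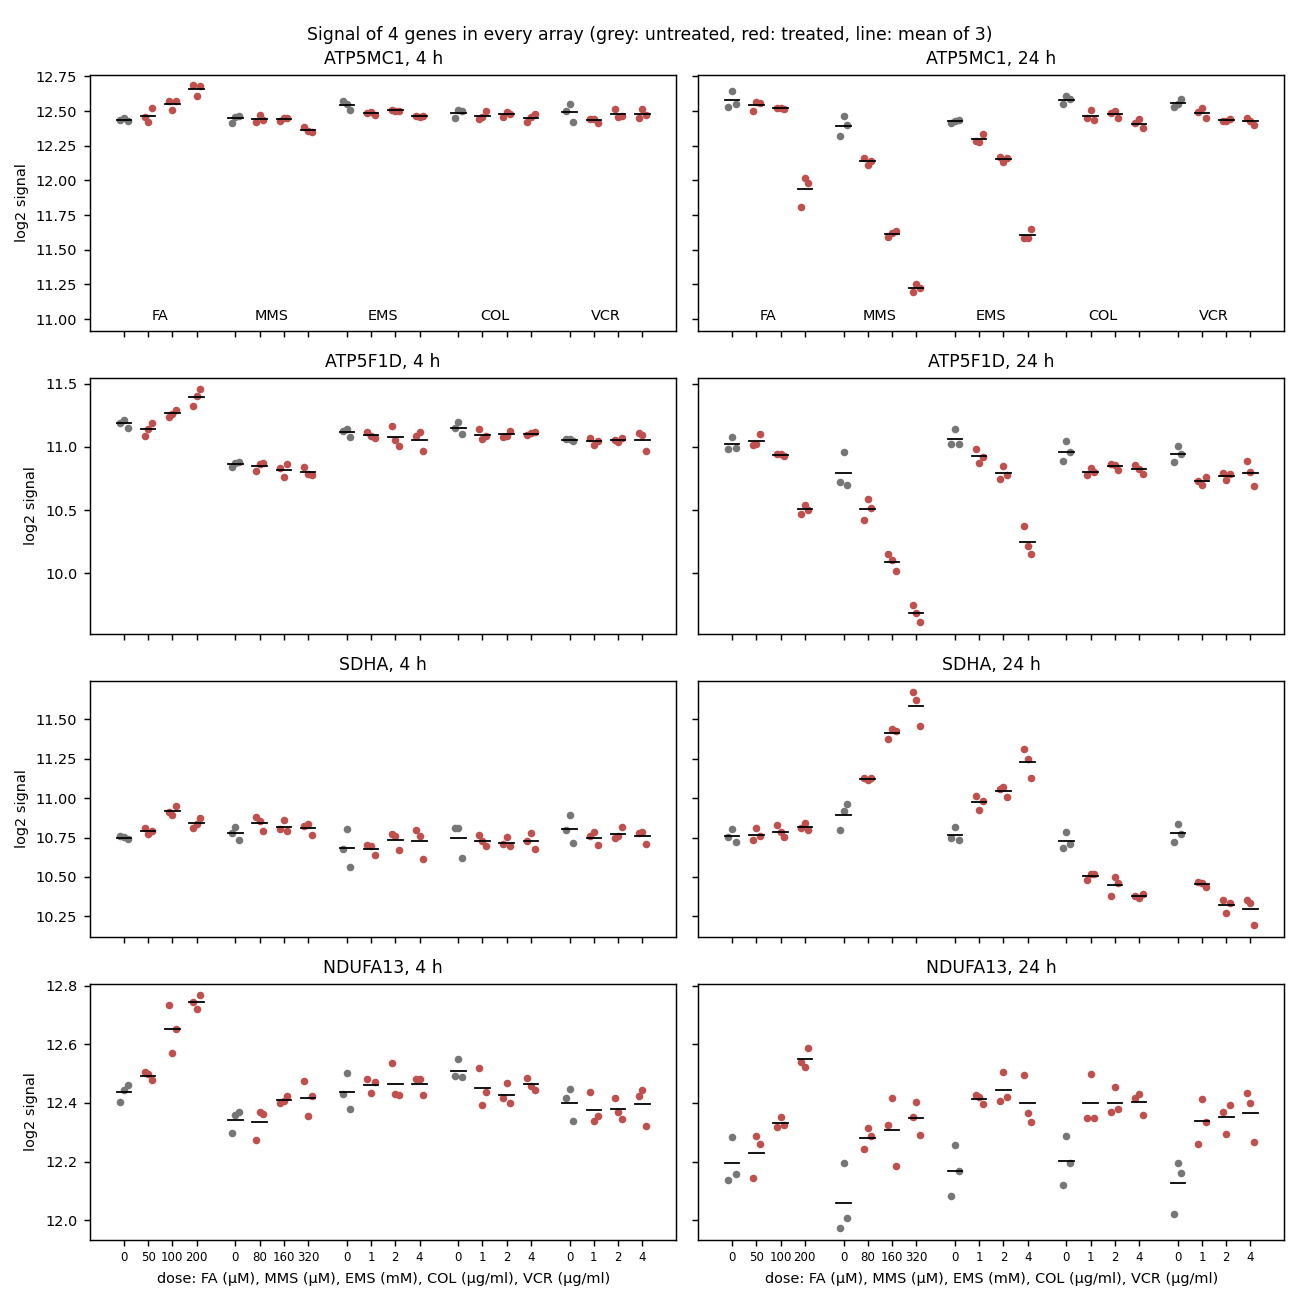
Log2 signal of ATP5MC1, ATP5F1D, SDHA and NDUFA13 on every array, with 4 h on the left and 24 h on the right, doses in rising order within each chemical, untreated arrays in grey, treated arrays in red and lines for group means. At 24 h ATP5MC1 and ATP5F1D stepped down with MMS and EMS dose, SDHA stepped up with MMS and EMS and down with COL and VCR, and NDUFA13 lay above untreated in all 5 chemicals.

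The ACTB 3′ minus 5′ signal was also higher at each MMS dose at 24 h, with 0.941 ± 0.0792 in untreated cells, 1.06 at 80 µM, 1.28 at 160 µM and 1.88 ± 0.260 at 320 µM (log2, SD, n = 3 each). Its part in the MMS changes was not tested. Of the 27 called members with another probe set above the limit at 320 µM, 21 had all probe sets moving the same way. The effect of 320 µM MMS at 24 h minus that at 4 h was also tested, and was called higher for 9 members and lower for 36. Of all genes 25.6% were called higher and 19.7% lower, and of the bright non-members 29.3% and 36.2%. The number of called members lay between 26 and 34 when an experiment was left out.

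EMS at 24 h gave mostly rises at 1 and 2 mM and mostly falls at 4 mM. At 1 mM 17 members were called higher and 3 lower, where 15.4% and 8.94% of all genes were called, and at 2 mM 22 were higher and 7 lower, where 19.9% and 14.7% were called. At 4 mM 11 were higher and 32 lower, where 27.8% of all genes were higher and 23.6% lower, and of the bright non-members 31.8% were higher and 42.7% lower. The median member change at 4 mM was −0.08. Repeated quantile normalisation gave 17 higher and 27 lower at 4 mM, and 25 higher and 6 lower at 1 mM. Complex I had 5 higher and 14 lower at 4 mM, complex II 2 and 0, complex III 0 and 2, complex IV 3 and 5, and ATP synthase 1 and 11. Leaving out an experiment left 1 to 8 called members at 1 mM and 13 to 16 at 2 mM.

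The same genes as under MMS headed both directions after EMS, at doses in another range, so their values are given side by side without a comparison. ATP5MC1 had 12.41, 12.43 and 12.43 in untreated cells, 12.28, 12.28 and 12.33 at 1 mM, 12.17, 12.13 and 12.16 at 2 mM and 11.58, 11.58 and 11.65 at 4 mM, and its changes were −0.13, −0.27 and −0.82 ± 0.0316 (adjusted p = 0.00515, 8.63e-07 and 9.21e-15). ATP5F1D had 11.02, 11.14 and 11.02 in untreated cells, 10.99, 10.88 and 10.92 at 1 mM, 10.75, 10.85 and 10.77 at 2 mM and 10.37, 10.21 and 10.15 at 4 mM (−0.82 ± 0.0567 at 4 mM, adjusted p = 1.00e-10). Both stepped down with dose, ATP5F1D without being called at 1 mM. NDUFB10 of complex I had 11.56, 11.42 and 11.42 at 4 mM against 11.93, 12.07 and 11.97 in untreated cells (−0.52 ± 0.0439, adjusted p = 1.81e-09).

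SDHA had 10.75, 10.81 and 10.73 in untreated cells, 11.01, 10.92 and 10.98 at 1 mM EMS, 11.06, 11.07 and 11.01 at 2 mM and 11.31, 11.24 and 11.13 at 4 mM (0.46 ± 0.0593 at 4 mM, adjusted p = 9.01e-07). NDUFV3 had 10.95, 10.88 and 10.85 at 4 mM against 10.43, 10.53 and 10.44 in untreated cells (0.43 ± 0.0467, adjusted p = 9.83e-08). COX7A2L, known as a factor that joins complexes III and IV into supercomplexes, had 12.08, 12.06 and 12.07 in untreated cells, 12.23, 12.25 and 12.23 at 1 mM, 12.30, 12.38 and 12.31 at 2 mM and 12.37, 12.44 and 12.41 at 4 mM (0.33 ± 0.0375, adjusted p = 1.61e-07). For SDHA and COX7A2L every treated array lay above every untreated one at each dose.

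At 24 h minus 4 h the effect of 4 mM EMS was called higher for 6 members and lower for 22. Of all genes 21.4% were called higher and 16.9% lower, and of the bright non-members 25% and 34.1%. Repeated quantile normalisation gave 11 members higher and 22 lower. Leaving out an experiment left 14 to 20. The ACTB 3′ minus 5′ signal was 0.664 ± 0.0342 at 4 mM against 0.521 ± 0.0715 in untreated cells at 24 h (log2, SD, n = 3 each), and its part in these changes was not tested.

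**Figure D3:**
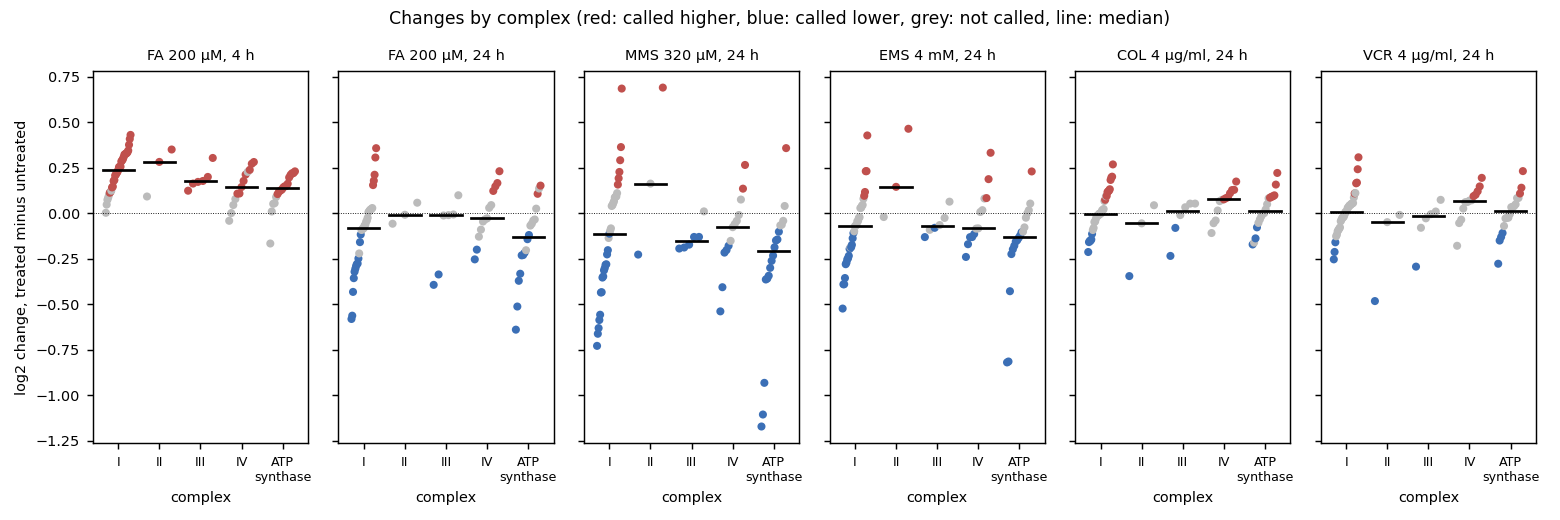
Log2 change of each tested member after 200 µM FA at 4 h and after the highest dose of each chemical at 24 h, grouped by complex, with a dot per gene and a line at the median of the complex. The medians of all 5 complexes lay above 0 after FA at 4 h, and ATP synthase had a median of −0.21 after 320 µM MMS at 24 h.

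COL and VCR, which block microtubule assembly, gave smaller changes at 24 h. After COL, 26 members were called higher and 10 lower at 1 µg/ml, 27 and 8 at 2 µg/ml and 23 and 12 at 4 µg/ml. Of all genes 16.6%, 17.4% and 18% were called higher in that order, and 20.7%, 20.3% and 18.3% lower. After VCR the counts were 23 higher and 7 lower at 1 µg/ml, 13 and 11 at 2 µg/ml and 13 and 9 at 4 µg/ml, where 16.6%, 17.4% and 17.5% of all genes were called higher and 20.8%, 19.5% and 18.2% lower. Among bright non-members at 4 µg/ml, 26.7% were higher and 30.9% lower after COL, and 26.1% were higher and 26.8% lower after VCR. Complex IV had 7 higher and 0 lower after 4 µg/ml COL, and 5 higher and 0 lower after 4 µg/ml VCR. Complex I had 10 higher and 6 lower after COL and 5 higher and 3 lower after VCR, and ATP synthase had 6 and 3 after COL and 3 and 4 after VCR.

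The direction of the split at 4 µg/ml COL and at each VCR dose rested on experiment 1. Without it, 5 members were higher and 8 lower at 4 µg/ml COL, and for VCR 3 were higher and 6 lower at 1 µg/ml, 2 and 5 at 2 µg/ml and 2 and 7 at 4 µg/ml. Leaving out each experiment in turn left 13 to 22, 13 to 18 and 13 to 16 called members at the rising COL doses, and 9 to 18, 7 to 15 and 8 to 15 at the rising VCR doses. With the mean of all probe sets of a gene, 11 members were higher and 12 lower at 2 µg/ml VCR and 10 higher and 13 lower at 4 µg/ml, and with no filter on dim genes 8 were higher and 9 lower at 4 µg/ml. Of the called members with another probe set above the limit, 8 of 18 after COL and 6 of 10 after VCR had all probe sets moving the same way. The ACTB 3′ minus 5′ signal was 0.512 ± 0.0224 at 4 µg/ml COL against 0.540 ± 0.0346 in untreated cells, and 0.499 ± 0.0387 at 4 µg/ml VCR against 0.463 ± 0.0327 (log2, SD, n = 3 each).

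SDHA, higher after MMS and EMS, was lower after both spindle poisons. It had 10.68, 10.79 and 10.71 in untreated cells, 10.48, 10.52 and 10.52 at 1 µg/ml COL, 10.38, 10.50 and 10.46 at 2 µg/ml and 10.38, 10.37 and 10.39 at 4 µg/ml (−0.35 ± 0.0473, adjusted p = 6.23e-06). After VCR it had 10.72, 10.84 and 10.77 in untreated cells, 10.47, 10.46 and 10.44 at 1 µg/ml, 10.36, 10.27 and 10.33 at 2 µg/ml and 10.35, 10.34 and 10.20 at 4 µg/ml (−0.48 ± 0.0508, adjusted p = 1.54e-07). At every dose of both chemicals the treated arrays lay below the untreated ones.

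NDUFS4 and ATP5MK rose after both. NDUFS4 had 9.97, 10.11 and 10.03 in untreated cells, 10.13, 10.24 and 10.07 at 1 µg/ml COL, 10.22, 10.24 and 10.22 at 2 µg/ml and 10.31, 10.38 and 10.24 at 4 µg/ml (0.27 ± 0.0503, adjusted p = 0.000235). After VCR it had 10.30, 10.31 and 10.15 at 4 µg/ml against 9.81, 10.07 and 9.96 in untreated cells (0.31 ± 0.0601, adjusted p = 0.000316). Only the lowest COL dose overlapped with untreated cells. ATP5MK, a small membrane subunit linked to the pairing of ATP synthases, had 13.70, 13.67 and 13.66 at 4 µg/ml COL against 13.45, 13.48 and 13.44 in untreated cells (0.22 ± 0.0278, adjusted p = 2.20e-06). After 4 µg/ml VCR it had 13.65, 13.64 and 13.65 against 13.37, 13.43 and 13.44 (0.23 ± 0.0317, adjusted p = 5.40e-06), and its arrays of the 3 VCR doses were within a narrow band at 13.63 to 13.66.

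UQCRC1 and NDUFS3 were also lower after both, NDUFS3 being a core subunit of complex I. UQCRC1 had 10.78, 10.81 and 10.73 at 4 µg/ml COL against 11.03, 11.04 and 10.95 in untreated cells (−0.24 ± 0.0501, adjusted p = 0.000791), and 10.69, 10.68 and 10.53 at 4 µg/ml VCR against 10.89, 11.00 and 10.90 (−0.29 ± 0.0712, adjusted p = 0.00229). NDUFS3 had 11.03, 11.09 and 11.06 at 4 µg/ml COL against 11.24, 11.33 and 11.26 in untreated cells (−0.21 ± 0.0448, adjusted p = 0.000685) and changed by −0.25 at 4 µg/ml VCR. The treated and untreated arrays were separate in each case. ATP5MF, whose only probe set here was dim, changed by −0.28 ± 0.0632 at 4 µg/ml VCR (adjusted p = 0.00131).

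The difference between times was tested for these chemicals too. Without a block, the members called were a smaller share than of all genes. The effect of 4 µg/ml COL at 24 h minus 4 h was called higher for 7 members and lower for 5, where 10.5% and 12% of all genes were called, and that of 4 µg/ml VCR for 4 and 4, where 10% and 12.4% were called. With the experiment as a block, 12 members were higher and 6 lower for COL, and 7 and 5 for VCR. Repeated quantile normalisation gave 18 higher and 7 lower for COL and 11 and 4 for VCR. With no filter on dim genes 7 and 3 were called in all, and leaving out an experiment left 1 to 4 for COL and 1 to 3 for VCR. The COL split turned to 0 higher and 1 lower without experiment 1, and likewise without experiment 3.

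Clastogens and aneugens were compared directly at their highest doses, as the change after MMS (320 µM) and EMS (4 mM) minus the change after COL and VCR (4 µg/ml each), each against its own untreated cultures. At 4 h limma called 0 members, 3 had an unadjusted p under 0.05, and 23.6% of all genes were called. A block for experiment called 1 member, the mean of probe sets 6 and repeated quantile normalisation 2. At 24 h 12 members were called higher and 41 lower in the clastogens, where 29.9% of all tested genes were called higher and 24.7% lower, and of the bright non-members 33.4% were higher and 44.1% lower. Complex I had 7 higher and 17 lower, complex II 2 and 1, complex III 0 and 2, complex IV 2 and 7, and ATP synthase 1 and 14. The median difference was −0.14, and 48 to 50 members were called when an experiment was left out.

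SDHA separated the classes most in the upward direction, with a difference of 0.99 ± 0.051 (1.99-fold, adjusted p = 4.86e-28), ahead of NDUFV3 at 0.64 ± 0.049 (adjusted p = 6.39e-19). ATP5MC1 (−0.84), ATP5F1D (−0.82), ATP5F1C (−0.67), NDUFA3 (−0.57), NDUFA1 (−0.53) and NDUFV2 (−0.50) headed the other direction. NDUFB10 and NDUFB7 followed at −0.47 each and COX5B at −0.46. NDUFA13, at 0.04, and NDUFA10, at −0.07, were not called, with 95% confidence intervals of −0.07 to 0.15 for NDUFA13 and −0.17 to 0.02 for NDUFA10. Each class held 2 chemicals, so p-values of the class comparison measure the spread between arrays and not that between chemicals of a class.

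In untreated cells the share of members called between the times was near or below that of all genes, a comparison added after the data were seen. At 24 h relative to 4 h, 13 members were called higher and 8 lower in the untreated cultures of FA, where 14.5% and 14.9% of all tested genes were called, 8 and 13 in those of MMS (11.5% and 20.6%), 9 and 14 in those of EMS (14.1% and 15.8%), 12 and 12 in those of COL (16.4% and 18.5%) and 9 and 10 in those of VCR (16.9% and 16%). Treated cultures were set against untreated ones of the same time throughout.

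Each chemical had its own untreated arrays, so the lists of called members at 24 h can be laid over each other. At the highest doses MMS and EMS had 31 lower members in common, 77.5% of the 40 of MMS and 96.9% of the 32 of EMS, and 8 higher ones, 80% of 10 and 72.7% of 11. Lower after both were thus 42.5% of members, 18.4% of all tested genes and 35.4% of the bright non-members, and higher after both were 11% of members, 23.3% of all tested genes and 25.5% of the bright non-members. COL and VCR had 12 higher members in common, 52.2% of the 23 of COL and 92.3% of the 13 of VCR, and 7 lower ones. Those are 16.4% and 9.59% of members, beside 13.8% and 14% of all tested genes and 22% and 23.4% of the bright non-members. FA and MMS had 23 lower members in common, 92% of the 25 of FA and 57.5% of the 40 of MMS, or 31.5% of members, beside 16.1% of all tested genes and 31.3% of the bright non-members. Lower after FA, MMS and EMS were 20 members, including 8 of ATP synthase (ATP5F1A, ATP5F1B, ATP5F1C, ATP5F1D, ATP5MC1, ATP5MC3, ATP5MJ and ATP5PO) and both COX5 genes. The 20 are 27.4% of members, where 13.6% of all tested genes and 27.8% of the bright non-members were lower after all 3, so the members lay near genes of similar brightness.

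At the highest doses at 24 h, 6 members were called in one direction under all 5 chemicals. COX7A2L and NDUFA13 were called higher in all 5, and ATP5F1D, ATP5MC1, NDUFA10 and NDUFB10 lower in all 5. These are 2.74% of members called higher and 5.48% lower, where 6.37% and 5.51% of all tested genes and 8.96% and 11.2% of the bright non-members were called so in all 5. For NDUFA10 the calls rest on its brightest probe set, since the mean of its 4 probe sets that reach the limit gave −0.12, 0.06, −0.06, −0.08 and −0.03 after FA, MMS, EMS, COL and VCR, and in each of these comparisons at least 1 of the others moved the opposite way. For NDUFA13, whose window carries the ETS letters, the 24 h values at the highest doses were 12.35, 12.40 and 12.29 after MMS against 11.97, 12.19 and 12.01 in untreated cells, 12.50, 12.37 and 12.34 after EMS against 12.08, 12.26 and 12.17, 12.42, 12.43 and 12.36 after COL against 12.12, 12.29 and 12.20, and 12.43, 12.40 and 12.27 after VCR against 12.02, 12.20 and 12.16. The groups did not overlap in any of these comparisons, and the changes were 0.29, 0.23, 0.20 and 0.24. ATP5MC1 fell by 0.17 at 4 µg/ml COL and by 0.13 at 4 µg/ml VCR, where FA, MMS and EMS gave −0.64, −1.17 and −0.82. The fall of ATP5F1D after VCR, −0.15 ± 0.048, was seen in 2 of 3 experiments and its groups overlapped.

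Opposite calls in the 2 classes were made for 5 members. SDHA was higher after MMS and EMS and lower after COL and VCR, as were 2.71% of all tested genes and 3.91% of the bright non-members. COX6B1, a complex IV subunit on the side of cytochrome c, COX7A2, NDUFA1 and NDUFB7 were lower after MMS and EMS and higher after COL and VCR. These 4 are 5.48% of members, beside 1.83% of all tested genes and 4.22% of the bright non-members. NDUFA1 changed by −0.56, −0.27, 0.12 and 0.11 after MMS, EMS, COL and VCR, NDUFB7 by −0.31, −0.28, 0.18 and 0.16, COX6B1 by −0.41, −0.13, 0.08 and 0.12, and COX7A2 by −0.20, −0.13, 0.17 and 0.19. For NDUFB7 the second probe set moved the other way after COL, at −0.08, and the mean of its 2 probe sets gave 0.05. The direct difference between the classes was −0.35 for COX7A2 (adjusted p = 8.98e-12) and −0.37 for COX6B1 (adjusted p = 2.31e-14).

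**Figure D4:**
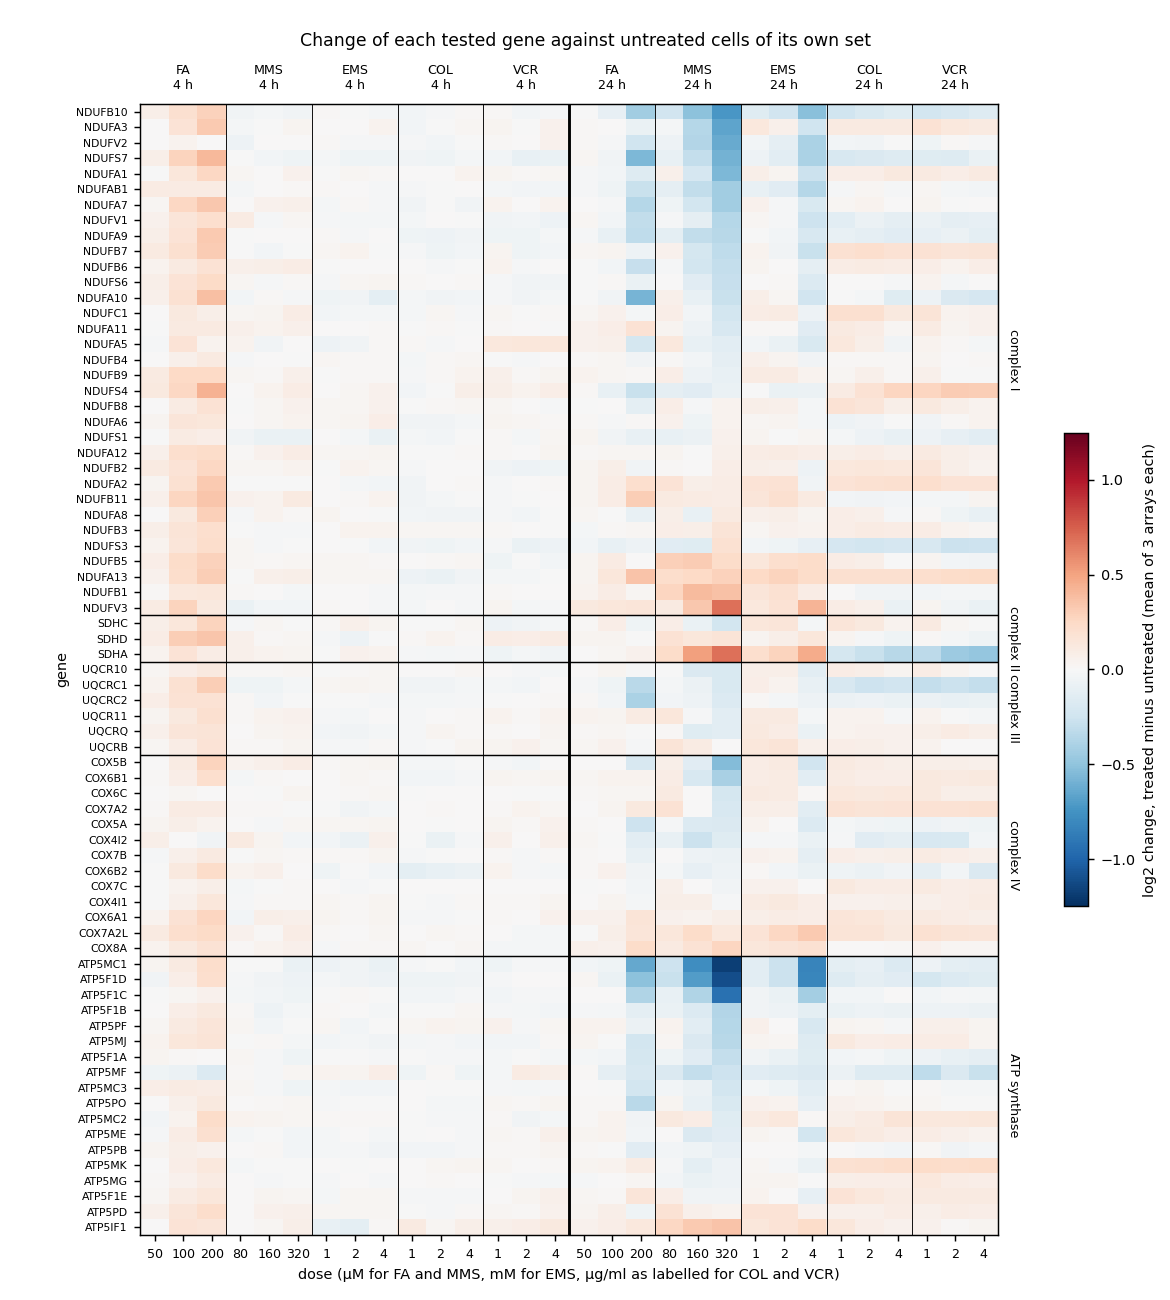
Log2 change of the 73 tested members, ordered by complex from top to bottom, in the 30 comparisons of a dose with its untreated cultures, with red for higher and blue for lower. Broad pale red stands at 100 and 200 µM FA at 4 h. At 24 h more members are blue than red at the highest doses of FA, MMS and EMS. SDHA and NDUFV3 are red after MMS and EMS.

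Subunits of one complex moved together only slightly more than subunits of different ones. Over the 30 dose changes, which share untreated arrays within a chemical and time, the median Pearson correlation was 0.43 for 777 pairs within a complex and 0.40 for 1851 pairs between complexes, and by complex it was 0.52 for ATP synthase, 0.42 for complex I, 0.41 for complex III, 0.35 for complex IV and 0.21 for the 3 pairs of complex II. The pattern of ATP5MC1 was most like those of ATP5F1D (0.987), NDUFAB1 (0.966), NDUFV2 (0.961), ATP5F1C (0.951) and NDUFB10 (0.936), which belong to ATP synthase and complex I. SDHA was most like NDUFB1 (0.807) and NDUFV3 (0.788) and most unlike ATP5MK (−0.841). These are descriptions over 30 changes and carry no p-value.

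Other mitochondrial genes gave a frame for the members, each list counted as called higher and called lower. Of all tested genes 29.6% were called higher and 24.2% lower after 200 µM FA at 4 h. The shares of the bright non-members were 33.6% and 30.3%. After 200 µM FA at 4 h the counts were 30 and 7 of 56 assembly factors, 35 and 2 of 50 mitochondrial ribosomal proteins, 11 and 1 of 16 TCA cycle genes, 5 and 0 of 14 cytochrome c and carrier genes, 7 and 3 of 21 import genes, and 3 and 4 of 14 genes of mitochondrial genome upkeep. Cytosolic ribosomal proteins gave 4 and 0 of 35, glycolysis 9 and 2 of 20 and p53 targets with mitochondrial roles 5 and 3 of 10. The regulators of mitochondrial biogenesis ran against the members, with 2 higher and 8 lower of 11 and a median of −0.85: PPARGC1B, a coactivator of respiratory genes, changed by −1.98 ± 0.108 and MYC by −1.39 ± 0.134, while MRPS25 of the mitochondrial ribosome rose by 0.61 and IDH3G of the TCA cycle by 0.44.

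At 24 h most mitochondrial lists had more genes called lower than higher after the highest doses. Each list, of the size given for 4 h, is described by the number called higher and the number called lower. Of all tested genes 23.8%, 30.8%, 27.8%, 18% and 17.5% were called higher after FA, MMS, EMS, COL and VCR. Called lower were 23.9%, 27.7%, 23.6%, 18.3% and 18.2% in the same order. Mitochondrial ribosomal proteins gave 4 and 30 after FA, 14 and 30 after MMS, 6 and 30 after EMS, 5 and 18 after COL and 3 and 13 after VCR. Assembly factors gave 8 and 25 after FA, 20 and 21 after MMS, 13 and 28 after EMS, 4 and 12 after COL and 7 and 18 after VCR. TCA cycle genes gave 0 and 10 after FA, 4 and 12 after MMS, 3 and 11 after EMS, 1 and 4 after COL and 1 and 6 after VCR. In these lists SCO2, which delivers copper to complex IV, changed by −0.57, −1.23, −0.80, −0.40 and −0.60 after FA, MMS, EMS, COL and VCR, and NDUFAF5, a complex I assembly factor, rose by 1.02 ± 0.0558 after MMS.

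Carriers and cytochrome c genes gave 0 higher and 10 lower after FA, 3 and 7 after MMS, 2 and 7 after EMS, 0 and 6 after COL and 0 and 6 after VCR. Import genes gave 1 and 19 after FA, 4 and 16 after MMS, 1 and 16 after EMS, 1 and 6 after COL and 1 and 3 after VCR. GPD2 of the carrier list, which feeds electrons from the cytosol to ubiquinone, changed by −0.66 after COL and −0.92 after VCR. Genes of mitochondrial genome upkeep gave 0 and 11 after FA, 2 and 9 after MMS, 1 and 12 after EMS, 2 and 5 after COL and 2 and 7 after VCR. Biogenesis regulators gave 1 and 2 after FA, 1 and 5 after MMS, 1 and 4 after EMS, 1 and 4 after COL and 2 and 2 after VCR. PPRC1, a coactivator on that list, changed by −0.65 after FA, −1.20 after MMS and −0.85 after EMS.

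Outside the mitochondrion, glycolysis genes gave 1 higher and 16 lower after FA, 2 and 18 after MMS, 1 and 17 after EMS, 1 and 12 after COL and 1 and 14 after VCR. HK2, the hexokinase of growing cells, changed by −1.20, −2.77, −2.07, −0.56 and −0.50 in the same order, and PDK1, the kinase that holds back pyruvate entry to the TCA cycle, by −1.03, −1.10, −1.27, −1.04 and −1.14. Cytosolic ribosomal proteins gave 5 and 0 after FA, 6 and 1 after MMS, 4 and 0 after EMS and 1 and 0 after each spindle poison. The p53 targets with mitochondrial roles gave 8 and 2 after FA, MMS and EMS alike and 7 and 1 after COL and after VCR.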

How the data were processed

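Total RNA of TK6 cells was hybridised to 120 Affymetrix HG-U133 Plus 2 arrays. The deposited log2 signals were computed by RMA according to the labels, which name the tool per the submitters' processing notes. Its software, its version and whether all arrays were normalised together are not given in the sources used here. The deposited matrix holds 54675 probe sets, 62 of them controls. By the platform's annotation, 41091 probe sets had 1 symbol, 1801 several and 11721 none, and 0 symbols needed an update through RefSeq (GRCh38.p14). The brightest probe set on average stood for each gene, and 44 members had 2 or more. Genes with fewer than 3 arrays at 6.18, the median of the probe set means, were not tested. The number of arrays limits the precision.

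Models came from limma (version 3.58.1, under R 4.3.3), with tables read by data.table (version 1.17.8), with 8 group means per chemical and no block, or 32 over the 96 arrays of the class comparison. Tests were two-sided and adjusted by Benjamini and Hochberg within a comparison. Counts were made in pandas 2.3.3, numpy 2.4.6 and scipy 1.17.1 under Python 3.11.15, and drawings in matplotlib 3.10.9. On data simulated for 200 µM FA at 24 h over 14023 genes, 85 of 100 changes of 0.5 and 26 of 100 of 0.25 were recovered, with 8 false calls.

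The labels' experiment number was treated as a shared batch. Arrays of the same number deviated together in 29 of 30 dose comparisons, and every pair's correlation was over 0.1 in 19 of them (median of the means 0.29). Blocked counts are printed where they change a call. Alternatives were that block, keeping all dim genes, averaging a gene's probe sets, repeated quantile normalisation and leaving out each experiment. Leaving out 1 untreated FA array, and comparing untreated cultures at both times, were added after the data were seen.

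Named were the 3 largest called changes each way per highest-dose comparison and the 2 largest each way per difference between times. Both needed 1 sign in all 3 experiments. A panel described in the results and up to 2 genes of each other list were named too. The members, the lists and this rule were chosen with earlier results of these data known.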

Additional observations from a re-analysis of the deposited data

Results flagged for a closer look

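The effect of the highest dose was tested as 24 h minus 4 h in limma. It differed between the times for 48 members after 200 µM FA, 45 after 320 µM MMS and 28 after 4 mM EMS. It differed for 12 members after 4 µg/ml COL and 8 after 4 µg/ml VCR. After FA, MMS and EMS these were 65.8%, 61.6% and 38.4% of members, beside 53.3%, 45.2% and 38.3% of all tested genes. After COL and VCR 22.5% and 22.4% of all tested genes were called, larger shares than of the members. The 2 members with the largest falls after FA were NDUFS7 at −0.97 and NDUFA10 at −0.96, though NDUFA10 was at −0.39 with the mean of its probe sets. After MMS, NDUFV3 at 0.72 and SDHA at 0.66 led the positive differences, and ATP5MC1 at −1.09 and ATP5F1D at −1.045 the negative ones. EMS gave the same leaders, NDUFV3 at 0.44 and SDHA at 0.42, ATP5F1D at −0.76 and ATP5MC1 at −0.74.

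For COL the largest differences between the times were 0.25 for NDUFA13 and 0.19 for ATP5MK upwards, and −0.33 for SDHA and −0.21 for UQCRC1 downwards. For VCR, by the same rule, NDUFA13 at 0.25 and ATP5MK at 0.22 led upwards, and SDHA at −0.44 and ATP5MF, a dim member, at −0.35 downwards. Only called genes that moved in 1 direction in all 3 experiments were named, so that agreement comes from the choice and adds no separate support. Fewer members were called in these differences when any experiment was left out, as given above.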

How the results depend on the processing

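Counts are of the 73 tested members called in either direction. With the experiment number as a replicate block, 1 member was called at 100 µM FA at 24 h, 1 at 320 µM MMS at 4 h and 1 between classes at 4 h, where the unblocked fits called 0, and no other count moved by over 1.5 times; 171 of 174 named results kept their call and 3 gained one. The mean of a gene's probe sets called 2 members at 160 µM MMS at 4 h, 5 at 320 µM at 4 h and 6 between classes at 4 h, and turned the direction of the split at 2 µg/ml VCR (23 called) and 4 µg/ml VCR (23 called) at 24 h. Under it COX4I1 turned to −0.0604 at 200 µM FA at 4 h and to −0.0507 at 4 µg/ml VCR at 24 h. Repeated quantile normalisation called 22 members at 100 µM FA at 4 h, 1 at 320 µM MMS at 4 h, 31 at 1 mM EMS at 24 h, 2 between classes at 4 h, and 25 and 15 in the differences between times of COL and VCR. Without the filter on dim genes 7 and 3 were called in those differences and 17, with the split turned, at 4 µg/ml VCR at 24 h. Without the untreated FA array of experiment 3 at 4 h, 25 were called at 100 µM FA at 4 h. The cause of these shifts was not tested.

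Leaving out each experiment leaves fewer arrays. It gave 8 to 31 at 100 µM and 35 to 45 at 200 µM FA at 4 h and 2 to 3 between these doses at 4 h. At 24 h it gave 5 to 9 at 80 µM MMS, 1 to 8 and 13 to 16 at 1 and 2 mM EMS, 13 to 22, 13 to 18 and 13 to 16 at the rising COL doses and 9 to 18, 7 to 15 and 8 to 15 at the rising VCR doses. Between times it gave 26 to 34 for MMS, 14 to 20 for EMS, 1 to 4 for COL and 1 to 3 for VCR. Counts at 24 h stayed within 1.5 times for 200 µM FA (26 to 30), 160 µM MMS (26 to 28), 320 µM MMS (43 to 45), 4 mM EMS (30 to 36) and the classes (48 to 50). In the simulated data 100 genes drawn from all tested genes changed by 0.25, of which 26 were recovered, and 100 by 0.5. Far more genes were called in the real comparisons of the highest doses at 24 h. The simulated recovery therefore sets no size limit for the member calls. Small changes remain limited by 3 arrays per group.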
